A study of Mus musculus with 12 samples.

Results

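The clustered protocadherin genes lie side by side on mouse chromosome 18 as the Pcdha, Pcdhb and Pcdhg clusters. They were described here by DNA methylation in B cells sorted by the number of divisions. Members were the CpGs whose nearest-gene symbol in the deposited table began with Pcdha, Pcdhb or Pcdhg, which gave 227 of 760348 CpGs. All 227 carried the symbol Pcdha1, because the nearest transcript of that name runs across the whole Pcdha cluster. CpGs at the Pcdhb and Pcdhg genes carried another symbol, Gm37013 (578 CpGs), and so did not meet the rule. To compare the 3 clusters, each CpG was placed by the gene of its nearest transcription start site. This put 130 of the Gm37013 CpGs at Pcdhb genes and 398 at Pcdhg genes, and left 50 at neither. The 227 Pcdha CpGs fell to 13 Pcdha genes by the same rule, except 1 CpG whose start site had no gene identifier.

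Clustered protocadherins are cell-surface adhesion proteins of the cadherin family. In the Pcdha and Pcdhg clusters each variable exon has its own promoter and is spliced to constant exons shared by the whole cluster, whereas the Pcdhb genes are single-exon genes without them. In neurons each cell uses a small, partly random set of the variable promoters, which gives the cell a surface identity, and methylation of a variable promoter goes with its silence. The last variable exons of the Pcdha and Pcdhg clusters, called C-type, follow other rules and are used by most neurons of a kind. These genes are not known as genes of B cell function.

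The study followed splenic B cells (B220+ CD43-) that were taken from naive mice, stained with CFSE or CTV, dyes that fade as a cell divides, moved into uMT mice and stimulated there with lipopolysaccharide (LPS), a bacterial cell-wall product that makes B cells divide. The uMT strain lacks mature B cells of its own. Cells were sorted 3 days later from 2 hosts, numbered 196 and 197, into 6 fractions per host. Div0 had not divided, and Div1, Div3 and Div5 had done so 1, 3 and 5 times. Div8neg and Div8pos had divided at least 8 times and lacked or carried CD138, a surface marker of plasmablasts. The series text names C57/BL6J donors, and the sample labels give female mice, B6.SJL-Ptprca Pepcb/BoyJ, spleen and an age of 8 weeks for every sample. All cells, Div0 included, came from an LPS-treated host, so no fraction is an untreated control. The sources used here do not say whether each host received cells of a single donor, so host replicates may share donors. Methylation was read by bisulfite sequencing of restriction fragments rich in CpGs, and a level below is the percent of reads that were methylated.

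The 12 libraries held between 17969105 and 56775157 reads over the tested CpGs, and the host 196 libraries were shallower than those of host 197 in every fraction. At the Pcdha CpGs the median coverage per library ran from 22 to 63 reads. Each CpG had at least 10 reads in every library, so a single level in a single library moves in steps of several points. Of the B cell marker genes, Cd22 stood at 26.9% and Pax5 at 0% in Div0 over the CpGs within 500 bp of a start site. All 4 plasma cell marker genes had such CpGs, with Div0 means of at most 10.9%. Among other cell types, 2 of 7 T cell genes (Cd4 at 77.8% and Lck at 19.9%) and 2 of 6 myeloid genes (Mpo at 4.87% and Elane at 85.0%) had them. Cd22 ran from 1.72% to 30.7% over the 12 libraries. Whether the makeup of the fractions plays a part in the values below was not tested.

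In undivided cells the 3 clusters held different amounts of methylation. The Pcdha CpGs averaged 54.6% ± 0.433 (SD, n = 2), the Pcdhg CpGs 59.1% ± 0.0120 and the Pcdhb CpGs 79.0% ± 0.991. All tested CpGs together averaged 56.0% ± 0.215. The order of the clusters was the same in each of the 12 libraries. Pcdha lay below Pcdhb by 19.9 to 25.4 points and below Pcdhg by 1.82 to 4.83 points. These are means over CpGs chosen with earlier results known, and so they carry no p-value.

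The protocadherin CpGs had many more levels in the middle of the range than the table as a whole. Of the Pcdha CpGs, 48.9% (111 CpGs) lay between 20% and 80% at Div0, 21.6% (49) lay under 20% and 29.5% (67) at 80% or more. The middle range held 48.0% of the Pcdhg CpGs and 35.4% of the Pcdhb CpGs, but 9.16% of all CpGs. Of all CpGs, 38.6% lay under 20%, against 3.08% of the Pcdhb CpGs. A level of this kind is an average over the cells of a library, and the fractions do not tell a mixture of methylated and unmethylated alleles from partial methylation of each.

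Methylation at Div0 was higher farther from the start site in each cluster. The 119 Pcdha CpGs within 500 bp of a start site averaged 35.7% ± 0.0656 (SD, n = 2) at Div0. The 54 CpGs between 500 and 2500 bp averaged 58.9% ± 0.875, and the 54 beyond 2500 bp, mostly in introns, 92.0% ± 0.800. In the Pcdhg cluster the same steps gave 39.3%, 67.8% and 92.0%, and in the Pcdhb cluster 41.2%, 80.7% and 89.1%. Over all CpGs they gave 7.94%, 34.3% and 81.9%. The clusters thus stood above the table mean in every step, and by the least beyond 2500 bp.

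The C-type genes were the low end of both clusters that have them. Pcdhac1 and Pcdhac2, the C-type genes of the Pcdha cluster, averaged 16.6% ± 0.808 over 50 CpGs within 500 bp of their start sites at Div0. The alternate genes Pcdha1 to Pcdha12, from which neurons choose, averaged 49.6% ± 0.473 over 69 CpGs at that distance. In the Pcdhg cluster, the 36 C-type CpGs near a start site (Pcdhgc3, Pcdhgc4 and Pcdhgc5) averaged 6.66% ± 0.0951, the 75 Pcdhga CpGs 52.0% ± 0.844 and the 21 Pcdhgb CpGs 49.9% ± 0.865. The gap at this distance was 33.0 points in the Pcdha cluster and 43.3 to 45.4 points in the Pcdhg cluster, far above the spread between hosts. Few CpGs upstream of the alternate Pcdha start sites were covered: 3 within 500 bp upstream, all at Pcdha8, against 14 at the C-type genes. The alternate values near the start are therefore mostly values of the first part of the variable exon.

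**Figure D1:**
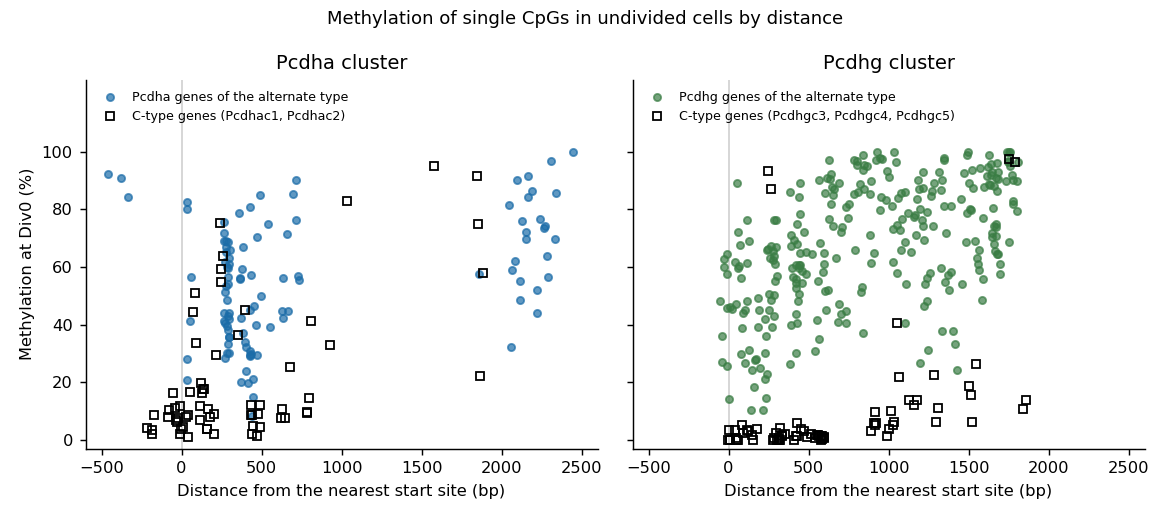
Methylation of single CpGs in undivided cells (Div0, mean of the 2 hosts, percent) against distance from the nearest start site in bp, from 500 bp upstream to 2500 bp downstream, for the Pcdha cluster (left) and the Pcdhg cluster (right). Filled circles are CpGs of the alternate genes and open squares CpGs of the C-type genes. Most C-type squares lie under 20% in the first 500 bp, where the alternate genes average 49.6% (Pcdha), 52.0% (Pcdhga) and 49.9% (Pcdhgb).

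Within the C-type genes of the Pcdha cluster the low stretch was short. At Pcdhac2 the 31 CpGs under 20% all lay between 7 bp upstream and 794 bp downstream of the start site, and the CpG at 1032 bp downstream was at 82.8%. Pcdhac1 was lowest upstream of its start, at 2.25% for the CpG 183 bp upstream, and reached 75.3% at 240 bp downstream. Pcdhgc4 was low throughout: its 15 CpGs, from 93 to 562 bp downstream, ranged from 0% to 5.95% and averaged 2.43% ± 1.30 (SD, n = 2). Pcdhgc3, with 58 CpGs, averaged 11.9% ± 0.205, and 50 of them were under 20%. Pcdhgc5 differed from the other C-type genes in its few covered CpGs, 4 between 249 and 1792 bp downstream, which averaged 93.7% ± 3.21.

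Among the alternate genes with at least 5 CpGs, Pcdha7 was the highest of the Pcdha cluster at Div0, at 89.2% ± 3.55 (SD, n = 2), but its 9 CpGs all lay 3516 to 6520 bp downstream of its start. Pcdhac2 was the lowest gene of the cluster, at 25.2% ± 0.799 over 42 CpGs, and Pcdha5 the lowest alternate gene, at 43.9% ± 2.77 over 13 CpGs. In the Pcdhb cluster the range ran from Pcdhb5 at 66.4% ± 1.42 to Pcdhb22 at 88.1% ± 2.60, and in the Pcdhg cluster from Pcdhgc4 to Pcdhga7 at 94.4% ± 2.56. Covered positions differ between genes, so these levels rank positions as well as genes.

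Through the first divisions the clusters stayed near their Div0 level. Pcdha averaged 55.3% ± 0.391 at Div1, 55.6% ± 0.120 at Div3 and 54.7% ± 0.229 at Div5. Pcdhb stood between 78.8% and 79.1% in these fractions and Pcdhg between 58.2% and 59.0%. A CpG was called lower or higher where the adjusted p of a quasi-binomial model over all CpGs was under 0.05 and the group means differed by at least 20 points. No CpG of any cluster was called at Div1, Div3 or Div5 against Div0, where 0%, 0.027% and 0.123% of all CpGs were called lower and 0%, 0.00118% and 0.00552% higher. An unadjusted p under 0.05 was found for 9, 15 and 19 of the 227 Pcdha CpGs in the 3 comparisons (3.96%, 6.61% and 8.37%), near the 5.44%, 6.06% and 6.93% of all CpGs.

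After 8 or more divisions the means were lower, by different amounts. In Div8neg the Pcdha mean was 53.0% ± 0.210, and the difference from Div0 within hosts was -1.59 points ± 0.223 (SD, n = 2). Pcdhb differed by -3.05 ± 1.41, Pcdhg by -2.17 ± 0.0801 and all CpGs by -2.86 ± 0.171. In Div8pos the Pcdha mean was 53.5% in host 196 and 51.8% in host 197, which is -1.37 and -2.54 points from Div0 (-1.95 ± 0.829). Pcdhb differed by -4.83 and -7.78 points (-6.30 ± 2.08) and Pcdhg by -3.75 and -3.66 (-3.70 ± 0.0641). All CpGs differed by -6.11 ± 0.207, so the Pcdha and Pcdhg differences were smaller than that of all CpGs in both hosts.

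The small Pcdha difference depended on which CpGs were counted. Over the 88 Pcdha CpGs with at least 20 reads in every library it was -0.103 points in Div8pos and 0.815 points, the other direction, in Div8neg. Over the 182 CpGs within 5 kb of a start site it was -0.738 in Div8pos, and with reads summed over CpGs it was -0.795. The second deposited table, which asks for 10 reads per fraction rather than per library, covers 368 CpGs of this cluster, and there the Div8pos difference was -4.27. The 141 Pcdha CpGs outside the first table differed by -7.93 points.

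**Figure D2:**
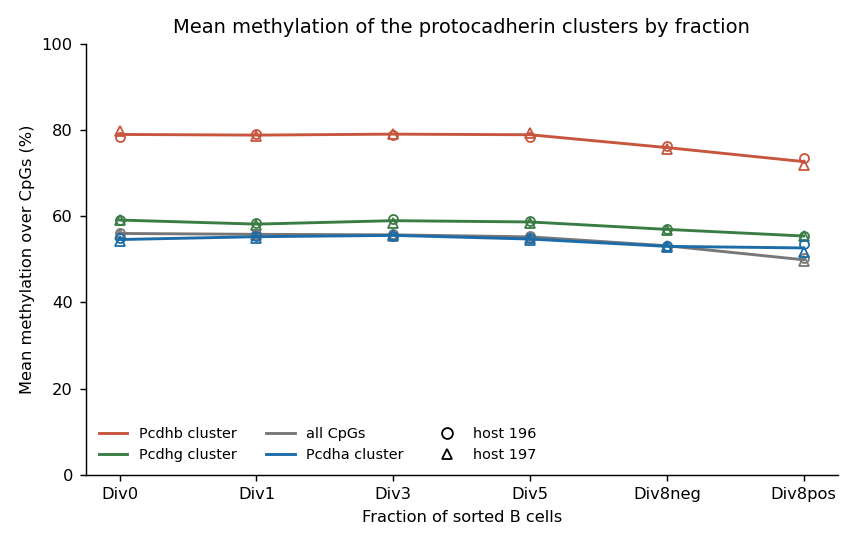
Mean methylation (percent, y axis) over the CpGs of each cluster and over all CpGs in the 6 fractions (x axis); lines join the means of the 2 hosts, circles are host 196 and triangles host 197. All 4 lines stay within 1 point of Div0 up to Div5 and are lower in Div8neg; between Div8neg and Div8pos the mean of all CpGs differed by -3.25 points, and the Pcdha mean differed by -0.365 with the 2 hosts on opposite sides of 0.

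Between Div8pos and Div8neg, fractions that both divided at least 8 times and differ in CD138, the Pcdha mean showed no common direction. It differed by 0.379 points in host 196 and by -1.11 in host 197 (-0.365 ± 1.05, SD, n = 2). Pcdhb differed by -3.26 ± 0.671 points, Pcdhg by -1.54 ± 0.144 and all CpGs by -3.25 ± 0.378. No Pcdha CpG was called in this comparison by the quasi-binomial model, and 17 (7.49%) had an unadjusted p under 0.05, against 12.8% of all CpGs. Over all CpGs 0.636% were called lower and 0.00697% higher. A Pcdhga1 CpG, at chr18:37822632, was lower: it stood at 100% in both Div0 and both Div8neg libraries and at 70.0% and 86.5% in Div8pos (-21.7 points, SE 4.88, adjusted p 0.0402). This call was lost with the host as a block (adjusted p 0.246) and without any of the 4 Div8neg and Div8pos libraries.

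Split by distance, the Div8pos difference was largest in size far from the start sites. Pcdha CpGs beyond 2500 bp differed from Div0 by -6.75 points ± 0.297 (SD, n = 2), those between 500 and 2500 bp by -3.69 ± 0.841, and those within 500 bp by 1.01 ± 1.06. All CpGs at these distances differed by -8.85 ± 0.330, -4.35 ± 0.0885 and -0.747 ± 0.0139. In the second table the Pcdha differences were -9.85, -4.50 and -0.952 points, over 97, 101 and 170 CpGs. All CpGs of that table gave -9.92, -5.00 and -0.755. The part of the cluster near start sites is large: 52.4% of the Pcdha CpGs of the first table lay within 500 bp.

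**Figure D3:**
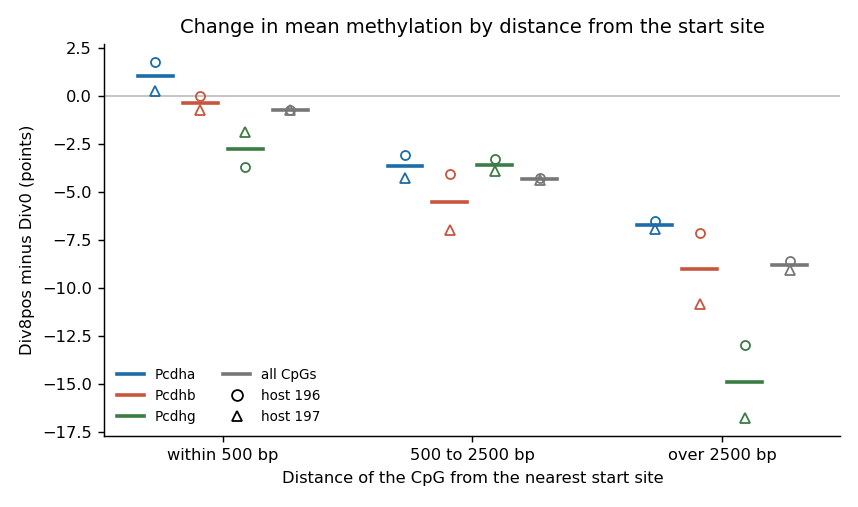
Difference in mean methylation between Div8pos and Div0 (points, y axis) for CpGs at 3 distances from the nearest start site (x axis), for the 3 clusters and all CpGs; bars are the mean of the 2 hosts, circles host 196 and triangles host 197. In each set the CpGs beyond 2500 bp have the lowest value, -6.75 for Pcdha and -14.9 for the 13 Pcdhg CpGs.

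Split by their level in Div0, the CpGs at 80% or more differed by similar amounts in the 3 clusters. They differed by -6.49 points ± 1.08 (SD, n = 2) for Pcdha, -7.65 ± 1.26 for Pcdhb and -7.46 ± 0.543 for Pcdhg, and by -9.83 ± 0.243 over all CpGs. CpGs between 20% and 80% differed by -0.673 ± 0.432 for Pcdha, -4.90 ± 3.49 for Pcdhb and -2.23 ± 0.0869 for Pcdhg. For all CpGs in that band the difference was -10.05 ± 0.694. The C-type and alternate Pcdha genes were apart in this band: 22 C-type CpGs differed by -6.39 ± 0.663 and 89 alternate CpGs by 0.740 ± 0.375. These CpGs were not matched for distance from the start site. The bands were set on the same Div0 values that enter the difference, so chance in those values adds a fall to high bands and a rise to low ones.

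Against Div0, 4 of the 227 Pcdha CpGs were called lower in Div8pos (1.76%) and none higher, where 6.61% of all CpGs were lower and 0.0271% higher. Only CpGs at 20% or more in Div0 had room to fall by 20 points, and 4 of 178 such Pcdha CpGs were lower (2.25%), against 10.8% over the whole table. The shares were 3.17% of the Pcdhb CpGs and 3.66% of the Pcdhg CpGs with that room. In all, 4 of 130 Pcdhb CpGs and 12 of 398 Pcdhg CpGs were lower and 1 Pcdhg CpG was higher. Many CpGs share a read or a restriction fragment with their neighbours and are not independent. With the host as a block, the calls in Div8pos numbered 2 for Pcdha, 2 for Pcdhb and 8 for Pcdhg. Without Div0 of host 197 they numbered 0, 0 and 3, and without Div8pos of host 197 there were 0 for Pcdha and 3 for Pcdhg. Without Div0 of host 196 there were 2 for Pcdha, and without Div8pos of host 196 there were 8 for Pcdhb.

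In Div8neg, 1 Pcdha CpG (0.441%), no Pcdhb CpG and 3 Pcdhg CpGs (0.754%) were called lower than in Div0, where 0.78% of all CpGs were lower and 0.0397% higher. None of these 4 was called with the host as a block, and each was lost without Div8neg of host 197. Along the division number from Div0 to Div8neg, the trend was called at 1 Pcdha and 1 Pcdhg CpG, both lower, against 1.02% of all CpGs lower and 0.0451% higher. The Pcdha trend call was lost without Div0 or Div1 of host 196 or either Div8neg library, and the Pcdhg one without Div0 or Div8neg of host 197.

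The 4 Pcdha CpGs lie outside the start-site regions. The first is in the Pcdha1 exon at chr18:37091984 (mm9), 2044 bp downstream of the start, with 13 to 54 reads per library. It stood at 84.6% and 78.7% in Div0 (hosts 196 and 197), 78.3% and 63.8% in Div1, 61.4% and 77.8% in Div3, 75.0% and 58.8% in Div5, 66.7% and 68.9% in Div8neg, and 59.4% and 52.5% in Div8pos. The difference from Div0 was -25.7 points (SE 8.40, adjusted p 0.0357). Both Div8pos libraries were below both Div0 libraries, and the other 8 libraries, from 58.8% to 78.3%, overlapped Div8pos.

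The second is in the Pcdha7 intron at chr18:37137095, 3516 bp downstream. Its levels were 62.5% and 71.4% in Div0, 70.0% and 76.7% in Div1, 62.5% and 90.7% in Div3, 70.0% and 71.2% in Div5, 72.7% and 64.1% in Div8neg, and 43.8% and 41.9% in Div8pos. Only Div8pos was apart, below the other 10 libraries, by -24.2 points from Div0 (SE 9.06, adjusted p 0.0348).

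The other two lie 145 bp from each other in a Pcdhac2 intron, 13589 and 13734 bp downstream of the C-type start. At chr18:37317213 the levels were 93.5% and 87.5% in Div0, 100% and 81.8% in Div1, 85.0% and 83.6% in Div3, 80.8% and 90.4% in Div5, 61.9% and 63.6% in Div8neg, and 65.0% and 67.3% in Div8pos. All 4 libraries of cells with at least 8 divisions were below the other 8 libraries. This CpG was called in Div8pos (-24.4 points, SE 6.76, adjusted p 0.00847), in Div8neg (-27.8 points, adjusted p 0.0366) and along the division number (adjusted p 0.0365).

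At chr18:37317358 the levels were 70.6% and 88.1% in Div0, 93.3% and 70.0% in Div1, 57.9% and 84.2% in Div3, 76.9% and 63.2% in Div5, 68.8% and 59.1% in Div8neg, and 41.7% and 54.7% in Div8pos. The difference of -31.1 points (SE 8.48, adjusted p 0.00778) was the largest of the Div8pos differences in the Pcdha cluster, and the Div0 libraries themselves were 17.5 points apart. The neighbouring covered CpG of this intron, at chr18:37318490, stood at 86.2% in Div0 and 89.7% in Div8pos.

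Each of these calls was lost without some single Div0 or Div8pos library. The Pcdha1 call was lost without any of the 4. The Pcdha7 call was lost without Div0 of host 197 or either Div8pos library, the CpG at 37317213 without either Div0 library or Div8pos of host 197, and that at 37317358 without Div0 or Div8pos of host 197. With the host as a block both Pcdhac2 CpGs kept the Div8pos call, and the adjusted p was 0.108 at Pcdha1 and 0.102 at Pcdha7.

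**Figure D4:**
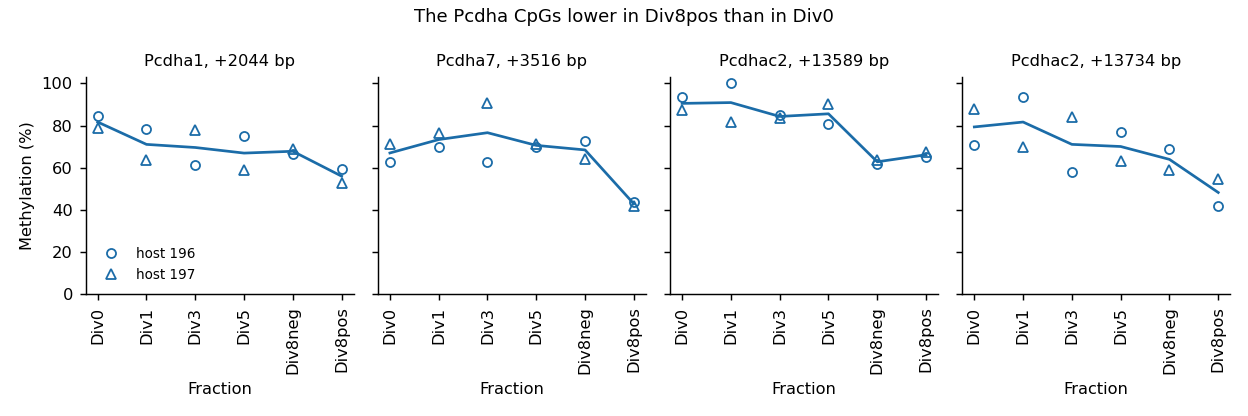
Methylation (percent, y axis) of the 4 Pcdha CpGs lower in Div8pos than in Div0, in the 6 fractions (x axis); circles are host 196, triangles host 197 and lines their means, and each panel gives the gene and the distance from its start site. The Pcdhac2 CpG at +13589 bp is lower in Div8neg and Div8pos alike, and the Pcdha7 CpG in Div8pos.

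In the Pcdhg cluster the lower CpGs lay mostly downstream of variable start sites, and 1 C-type gene was among them. Pcdhga1 had 3, of which the CpG at chr18:37823174 was called in Div8pos and Div8neg. It stood at 90.9% and 97.8% in Div0, 68.4% and 62.1% in Div8neg, and 68.4% and 70.0% in Div8pos, with no overlap between Div0 and the late fractions. The Pcdhgc3 CpG at chr18:37967126, 1055 bp downstream of its start, stood at 45.0% and 35.9% in Div0, at 24.0% to 26.9% in the 6 libraries of Div1, Div3 and Div5, at 21.6% and 15.3% in Div8neg and at 24.1% and 12.04% in Div8pos. The 2 Div0 libraries were thus above the other 10, with a Div8pos difference of -22.4 points (SE 5.35, adjusted p 0.00109). The Pcdhga1 call in Div8pos was lost without Div0 or Div8pos of host 197, and the Pcdhgc3 call without Div0 of host 196 or Div8pos of host 197.

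A CpG of the Pcdhgb5 exon at chr18:37892588 had the largest Div8pos difference of the 3 clusters, -45.7 points (SE 10.3, adjusted p 0.00442). It stood at 100% and 63.6% in Div0, but already at 18.2% and 31.6% in Div1, at 56.5% and 38.7% in Div3, at 50.0% and 49.0% in Div5, at 28.6% and 41.9% in Div8neg and at 33.3% and 38.9% in Div8pos. It was also among the 3 Pcdhg CpGs called in Div8neg (-46.6 points, SE 9.93, adjusted p 0.0264). Its Div0 libraries were 36.4 points apart with 16 and 22 reads, and without Div0 of host 196 the difference was -27.5 points and no longer called. It was also lost without Div8pos of host 197. The higher CpG, at Pcdhgb8 (chr18:37923209), stood at 60.0% and 77.8% in Div0 and at 100% in both Div8pos libraries, with 10 reads in the shallowest library, and was not called without Div8pos of host 197.

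The remaining Pcdhg CpGs were at Pcdhga2, Pcdhga3, Pcdhgb2, Pcdhga5 and Pcdhga6. Pcdhga6 held the only run of at least 3 called CpGs within 500 bp of each other in the 3 clusters, chr18:37869817-37869928 in its intron, with differences of -27.0, -23.5 and -28.6 points. With the host as a block the first of the 3 had an adjusted p of 0.0563, and all 3 calls were lost without Div0 of host 197. The first and the third were each also lost without another library. With single libraries left out, the 3 differences ran from -30.6 to -23.5, from -27.9 to -19.0 and from -34.3 to -23.0 points. In the Pcdhb cluster the 4 lower CpGs were at Pcdhb3, Pcdhb14, Pcdhb20 and Pcdhb22. The largest difference was at a CpG placed at Pcdhb22 (chr18:37715159), which stood at 100% in both Div0 libraries, at 76.9% and 94.3% in Div8neg and at 75.0% and 72.2% in Div8pos. This CpG is far from the gene's start. The CpGs placed at Pcdhb22 run from chr18:37678298, 284 bp downstream of the start, to chr18:37735780, 57766 bp downstream. Without Div0 of host 197 none of the 4 Pcdhb calls was kept.

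Gene levels were compared with limma over all genes with at least 5 CpGs, and a gene was called at an adjusted p under 0.05 and at least 10 points. With genes taken by symbol, the 227 CpGs form a single gene, Pcdha1, which was not called in any of the 6 comparisons. Its difference was -1.95 points in Div8pos (SE 0.676, adjusted p 0.0225 by limma) and -1.59 in Div8neg (adjusted p 0.0755). Of all genes by symbol, 16% were called lower in Div8pos and 0% higher, and the median gene differed by -5.80 points. The shares were 1.34% lower and 0.0119% higher in Div8neg, and 1.94% and 0.00595% in Div8pos against Div8neg. None was called in Div1 or Div3, and 0.101% were lower in Div5.

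With genes taken by the nearest start site, 0 of 11 Pcdha genes, 2 of 7 Pcdhb genes and 1 of 21 Pcdhg genes were lower in Div8pos than in Div0, and none was higher. Of all start-site genes 16% were lower. At an unadjusted p under 0.05 there were 2, 5 and 11 genes, while 84.1% of all start-site genes had such a p, and the median differences were -1.93, -4.28 and -3.53 points against -5.75 over all genes. No protocadherin gene was called in Div1, Div3, Div5 or Div8neg against Div0, or in Div8pos against Div8neg. Of all start-site genes 0.102% were lower in Div5, and 1.35% were lower and 0.0227% higher in Div8neg. Between Div8pos and Div8neg these shares were 2.04% and 0.0113%. In these comparisons, in that order, limma gave an unadjusted p under 0.05 for 1, 4, 4, 6 and 8 of the 39 genes, and for 3.3%, 3.75%, 11.4%, 57.2% and 65.3% of all genes.

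Pcdhga6 had the largest Div8pos difference of the genes tested, -14.4 points (SE 1.79, adjusted p 6.48e-05 by limma) over 9 CpGs. It stood at 88.2% and 84.5% in Div0, 83.5% and 81.6% in Div1, 83.4% and 80.6% in Div3, 82.3% and 82.2% in Div5, 81.7% and 77.0% in Div8neg, and 70.7% and 73.1% in Div8pos. Both Div8pos libraries were below the other 10.

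Pcdhb10 stood at 83.0% and 88.1% in Div0, 84.3% and 87.2% in Div1, 89.0% and 88.1% in Div3, 84.6% and 86.6% in Div5, 81.8% and 84.5% in Div8neg, and 74.6% and 73.7% in Div8pos. Its difference was -11.4 points (SE 1.68, adjusted p 0.000196 by limma) over 6 CpGs, and -8.83, under the 10-point limit, without Div0 of host 197. Here too Div8pos alone was apart.

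Pcdhb7 stood at 82.0% and 78.9% in Div0, 83.1% and 77.2% in Div1, 82.1% and 78.5% in Div3, 82.5% and 79.0% in Div5, 68.7% and 76.0% in Div8neg, and 72.0% and 63.2% in Div8pos. The difference was -12.9 points (SE 3.36, adjusted p 0.00576 by limma) over 9 CpGs. It was -8.48 points, with an adjusted p of 0.0522, without Div8pos of host 197. The Div8neg and Div8pos libraries overlapped each other and lay below all earlier fractions.

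In the Pcdha cluster the largest differences were small and went both ways. Pcdha7 differed by -5.04 points (SE 2.46, adjusted p 0.0825 by limma), with -0.107 in host 196 and -9.97 in host 197. Pcdha12 differed by -4.40 (SE 0.869, adjusted p 0.00115) over 32 CpGs, and its Div8pos libraries, at 71.8% and 72.0%, were below all the others, which ran from 73.8% to 77.5%. Pcdhac1 differed by -3.23 (SE 1.46, adjusted p 0.0646).

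Pcdha5 was the only Pcdha gene whose difference was positive with an adjusted p under 0.05: 4.95 points (SE 1.26, adjusted p 0.00503 by limma), below the 10-point limit, and 2.99 points without Div0 of host 196. It stood at 41.9% and 45.8% in Div0, 48.6% and 48.9% in Div1, 46.9% and 49.3% in Div3, 49.0% in both libraries of Div5, 45.8% and 47.5% in Div8neg, and 49.1% and 48.6% in Div8pos. The 2 Div0 libraries were at the bottom of the range, level with Div8neg of host 196, and the later fractions did not follow the order of divisions. All of its 13 CpGs lie within 466 bp of the start, in the variable exon.

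**Figure D5:**
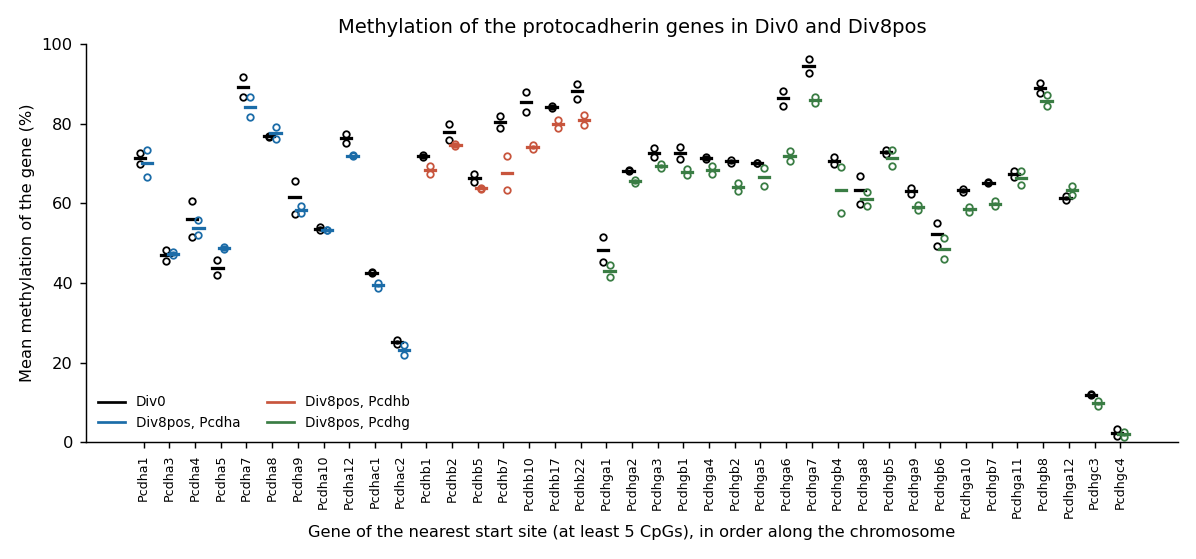
Mean methylation (percent, y axis) of the start-site genes with at least 5 CpGs, in order along the chromosome (x axis), in Div0 (black) and Div8pos (colour by cluster); bars are means and circles the 2 hosts. Pcdhb7, Pcdhb10 and Pcdhga6 show the called differences of -12.9, -11.4 and -14.4 points, and the C-type genes Pcdhac2, Pcdhgc3 and Pcdhgc4 the lowest levels.

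Among the other genes of the naming rule, Pcdhb22 differed by -7.26 points in Div8pos (adjusted p 0.00051), Pcdhga7 by -8.38 (adjusted p 0.000771) and Pcdhgb4 by -7.36 (adjusted p 0.0702), all by limma and all under the size limit. The 33 CpGs placed at Pcdhb22 reach 57766 bp downstream of its start, so its mean takes in CpGs far from the start. The Pcdhgb4 difference was -13.95 points in host 196 and -0.764 in host 197, and it was -1.60 without Div8pos of host 196 and -13.1 without Div8pos of host 197. None of the 7 Pcdhb genes with at least 5 CpGs had a positive difference, and the nearest to 0 of them was Pcdhb5 at -2.65. With fewer CpGs, Pcdhb11 (2 CpGs) differed by 2.55 points and Pcdhb16 (1 CpG) by 4.39, with hosts of opposite sign at Pcdhb16. The other Pcdhb genes with so few CpGs were lower in the mean. They were Pcdhb3 (-14.5), Pcdhb6 (-2.58), Pcdhb9 (-5.56, hosts of opposite sign), Pcdhb12 (-11.0), Pcdhb14 (-20.6), Pcdhb19 (-4.35) and Pcdhb20 (-15.3). Pcdhga12 was the only Pcdhg gene with a positive difference, 2.01 points in Div8pos (adjusted p 0.424). Its difference in Div8neg was 6.57 points (adjusted p 0.0383), and 3.95 (adjusted p 0.228) without Div8neg of host 197.

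The 3 C-type genes with the lowest levels had small mean differences, and most of their CpGs were under 20% in Div0. Pcdhac2 stood at 25.7% and 24.6% in Div0 and 24.5% and 22.0% in Div8pos, -1.93 points (adjusted p 0.0689 by limma), and -0.671 without Div8pos of host 197. Pcdhgc3 differed by -2.17 points (adjusted p 0.0272, and 0.171 without Div8pos of host 197) and Pcdhgc4 by -0.431 (adjusted p 0.622). Pcdhgc5, whose 4 CpGs are too few for the test, stood at 95.9% and 91.4% in Div0, at 92.4% and 84.7% in Div8neg and at 76.4% and 83.0% in Div8pos. Its Div8pos libraries were the lowest of its 12, with differences of -19.5 and -8.41 points in the 2 hosts (-13.97 ± 7.86, SD, n = 2). C-type CpGs at 20% or more in Div0 differed by -7.07 points ± 0.288 in the Pcdha cluster (35 CpGs). In the Pcdhg cluster 12 such CpGs differed by -12.6 ± 0.517. All CpGs of these clusters with that level, C-type included, differed by -2.86 ± 0.675 and -4.42 ± 0.176. The sets were not matched for distance: CpGs placed at Pcdhac1 run from -28192 to 26192 bp of its start.

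Related genes outside the clusters give the setting. Of 21 other protocadherins and giant cadherins listed, 20 had at least 5 CpGs, and 3 (15%, against 16% of all genes) were called lower in Div8pos: Pcdh12 (-10.1 points), an adhesion protein of endothelium, Fat2 (-10.8) and Fat3 (-11.9), giant cadherins. The median of the 20 was -6.08 points, against -5.80 over all genes. None of the 10 classical cadherins was called, with a median of -6.83. The adjusted p by limma was under 0.05 for all 10, as for 14094 of all 16816 genes. Of 19 measured genes for factors known to act at clustered protocadherin genes or for their partners, 2 (10.5%) were called lower, Wiz (-15.5) and Ret (-11.0), and the median was -4.96. Wiz encodes a zinc-finger protein known to bind clustered protocadherin promoters, and Ret a receptor kinase that associates with protocadherins. The genes for the insulator protein CTCF (-3.39), the cohesin subunit Rad21 (-2.80) and the silencing factor Smchd1 (-4.49) were not called.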

How the data were processed

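Reduced representation bisulfite libraries (MspI and TaqI digestion, PCR without molecular identifiers, 50 bp single-end reads, per the labels' protocols) were made from 6 fractions of B cells of 2 hosts. The submitters' processing notes name Bismark, Bowtie2 and the mm9 build, without versions. The deposited tables give methylated and unmethylated read counts per CpG and library, and the methylation as a fraction, per the file headers. That fraction matched the counts to within 5.6e-16. In the first deposited table every CpG had at least 10 reads in every library. The second covers 1639598 CpGs with at least 10 reads per fraction, and blank counts in it were read as 0. Positions, annotation classes, symbols and distances to start sites are those of the files. PCR copies are not independent molecules, so errors from counting alone are too small.

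A quasi-binomial logistic model of the counts was fitted at every CpG over all 12 libraries, with the sorted fraction as its term. The dispersion was moderated with squeezeVar of limma 3.58.1, which gave the same value, 1.16, to every CpG. The spread between hosts at a single CpG therefore does not enter its SE or p. P-values were adjusted by Benjamini-Hochberg over 760348 CpGs. The trend used the division number without Div8pos. Gene levels, the mean over a gene's CpGs, were tested with limma. The scripts were tested on simulated data. Within a fraction the hosts are the replicates. Fractions of the same host were sorted from the same host animal, by the host number in the sample titles, which does not tell whether the cells had a single donor. The deviations of the hosts from fraction means had correlations of -0.0052 to 0.0121 over 15 pairs of fractions (83552 CpGs). For the Pcdha CpGs alone the correlations ran wider, from -0.14 to 0.269. The first fits have no host term.

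The members, gene lists and tests were chosen with earlier results of these data known. The placing of CpGs by start site was chosen after the files were seen, because the symbol column names no Pcdhb or Pcdhg gene. It matched the file's Entrez ID of the nearest start site to a RefSeq gene table (GRCm38.p6), used for names only, and 679025 of 681714 CpGs with such an ID matched. A gene so named can differ from the transcript that covers a CpG, and some of the 37 CpGs placed at Pcdhgb8 lie near a second start site with its ID, beyond Pcdhgc4. Variable exons resemble each other, and how the aligner placed reads that fit several was not stated in the labels. The genes named were those with a called CpG, the highest and lowest at Div0 and those with the largest changes in Div8pos in each cluster (at least 5 CpGs), and the C-type genes. Alternatives were other size limits, coverage, dispersion and distance limits, a host block, leaving out libraries, and the second table.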

Additional observations from a re-analysis of the deposited data

How the results depend on the processing

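Of 344 alternative values of counts and cluster means, 283 stayed near the reported value. A mean had to keep its direction and lie within the replicate spread, and a count to lie within 1.5 times of the reported count. Many of the 283 are counts of 0 that stayed 0, so the total does not show that the other counts were steady. A size limit of 10 points gave, for Pcdha, 2 CpGs in Div8neg, 8 in Div8pos, 1 between Div8pos and Div8neg and 2 along the trend. For Pcdhb it gave 1 in Div8neg and 16 in Div8pos, and for Pcdhg 23 in Div8pos. In Div8pos the share lower was then 3.52% of Pcdha, 12.3% of Pcdhb and 5.53% of Pcdhg CpGs, against 14.6% of all CpGs. At this limit 1.2% of all CpGs were lower and 0.074% higher in Div8neg. Between Div8pos and Div8neg these shares were 0.865% and 0.013%, and along the trend 2.33% and 0.128%. With at least 20 reads in every library, which none of the 4 called Pcdha CpGs had, 88 Pcdha CpGs were tested and 0 called in Div8neg, Div8pos and the trend. Pcdhb then had 1 call in Div8pos, and Pcdhg 1 in Div8neg and 5 in Div8pos. Of all CpGs with that coverage, 0.892% were lower in Div8neg and 4.94% in Div8pos. With the dispersion of each CpG alone there were 0 calls in every cluster in Div8neg and Div8pos, as in the whole table, where 135573 CpGs had an unadjusted p under 0.05 in Div8pos. The 4 Pcdha CpGs then had adjusted p-values of 0.202 to 0.292. The replicate block (host) gave 0 Pcdha and 0 Pcdhg CpGs in Div8neg, where 0.324% of all CpGs were lower. In Div8pos it gave 2 Pcdha, 2 Pcdhb and 8 Pcdhg CpGs, where 4.9% of all CpGs were lower. It changed no other count of Pcdha, Pcdhb or Pcdhg CpGs against Div0 or along the trend and no gene call.

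Leaving out each library in turn gave 0 to 1 Pcdha CpGs in Div8neg, 0 to 4 in Div8pos and 0 to 2 along the trend, 0 to 8 Pcdhb CpGs in Div8pos, and 0 to 3 Pcdhg CpGs in Div8neg and 3 to 15 in Div8pos. It gave 1 to 2 Pcdhb and 1 to 2 Pcdhg start-site genes in Div8pos. Genes with at least 3 CpGs gave 5 Pcdhb and 2 Pcdhg genes, and a gene size limit of 5 points gave 4 Pcdhg genes. The shares of all start-site genes at these settings are not given here, so these counts do not compare the clusters with all genes. At the reported settings the median start-site gene differed by -5.75 points in Div8pos. The adjusted p by limma was then under 0.05 for 14676 of 17645 start-site genes. Of 435 alternative values of single CpGs and genes, 323 passed both limits and 0 changed direction. Many of these leave out a library of a fraction outside the comparison, which cannot change the difference. These totals are therefore no measure of how firm the calls were.

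For the Pcdha mean the difference from Div0 in Div8neg was -1.93 with summed reads, -1.11 within 5 kb, 0.815 with at least 20 reads and -2.31 in the second table. In Div8pos it was -0.795, -0.738, -0.103 and -4.27. For Pcdhg it was -3.44 in Div8neg with summed reads, -1.40 with at least 20 reads and -1.92 in the second table, and in Div8pos -4.13 with summed reads and -3.08 in the second table. Pcdhb moved by less than its spread. The causes were not tested. With 2 hosts and 22 to 63 reads at the median Pcdha CpG, small differences at single CpGs were not detectable.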
